A study of Mus musculus with 8 samples.

Results

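Oxidative phosphorylation (OXPHOS) genes were examined for binding of the transcription factor Bcl11b in mouse thymocytes. The members were the nuclear protein-coding genes of the RefSeq annotation of mm10 whose symbols begin with Nduf, Uqcr, Atp5 or Cox4 to Cox8, together with Sdha, Sdhb, Sdhc, Sdhd, Cyc1 and Cycs. This rule took 98 of 21887 genes, on 19 chromosomes: 41 complex I subunits, 8 complex I assembly factors, 4 genes of complex II, 9 of complex III, 18 of complex IV, 17 of complex V and the cytochrome c gene. A Bcl11b interval, a stretch of 201 bases in which the authors counted reads, was assigned to a gene when its midpoint lay in the gene body or within 1 kb of either end. Of 63098 intervals in the normalised table, 181 were assigned to an OXPHOS gene.

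The study compared Bcl11b binding by ChIP-seq, in which DNA attached to an antibody-captured protein is sequenced, between 2 genotypes of thymocytes, the developing T cells of the thymus. Wild type animals were Bcl11b+/+, and the mutant animals were Bcl11b+/N440K, with 1 allele that encodes the N440K form of the protein. Each genotype had 3 ChIP libraries, made from thymus with a rabbit antibody against Bcl11b, and 2 input libraries of the wild type were not used here. Neither the age of the animals, nor whether replicates came from separate animals, nor whether the antibody binds both forms of Bcl11b equally is given in the sources used here. The p-values therefore measure the spread between libraries, which may be technical. Thymocytes were measured in bulk, so fewer cells of a stage and less signal per cell cannot be told apart.

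Oxidative phosphorylation makes most of the ATP of a resting cell in the inner mitochondrial membrane. Complexes I and II take electrons from NADH and succinate, complex III passes them to cytochrome c, complex IV hands them to oxygen, and complex V, the ATP synthase, uses the resulting proton gradient. A few subunits are encoded in mitochondrial DNA and the rest by the nuclear genes described here, whose promoters are known for sites of the transcription factors NRF1, GABP (an ETS family factor), YY1 and SP1. Bcl11b is a zinc finger factor needed for commitment to the T cell lineage.

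The promoter sequences below come from directly before the starts of OXPHOS genes. They are not the sequences of the Bcl11b intervals, which covered these stretches only in part, or not at all at Cox8b. Each is the stretch of 250 bases before a RefSeq start on GRCm38.p6 (mm10), 5′ to 3′ on the gene's own strand. Ndufa4 had the strongest interval of all members (chr6:11907451-11907700, minus strand), Sdhb the strongest of complex II (chr4:140961021-140961270, plus strand) and Uqcrh of complex III (chr4:116075071-116075320, minus strand). Uqcrc1 had the smallest p between genotypes (chr9:108936398-108936647, plus strand), Atp5j the second strongest interval (chr16:84834977-84835226, minus strand), and Cycs encodes cytochrome c (chr6:50566570-50566819, minus strand). Cox8b, whose product is a muscle form of a complex IV subunit, had no interval (chr7:140900447-140900696, minus strand). Capitals mark exact matches, on either strand, to the NRF1 core GCATGCGC, the ETS core CCGGAAG, the YY1 site AAGATGGCG, the SP site GGGCGG, the CRE TGACGTCA or the RUNX site TGTGGTT.
Ndufa4: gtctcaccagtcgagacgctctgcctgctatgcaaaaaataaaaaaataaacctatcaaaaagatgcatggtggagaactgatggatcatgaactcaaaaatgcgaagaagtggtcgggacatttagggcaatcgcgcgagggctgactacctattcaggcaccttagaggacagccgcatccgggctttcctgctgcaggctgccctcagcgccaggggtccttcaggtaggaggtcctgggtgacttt
Sdhb: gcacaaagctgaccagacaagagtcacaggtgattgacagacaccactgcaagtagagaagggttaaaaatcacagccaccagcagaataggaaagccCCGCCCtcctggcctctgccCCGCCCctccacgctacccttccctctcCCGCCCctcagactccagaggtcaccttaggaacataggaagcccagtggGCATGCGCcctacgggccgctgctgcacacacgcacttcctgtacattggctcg
Uqcrh: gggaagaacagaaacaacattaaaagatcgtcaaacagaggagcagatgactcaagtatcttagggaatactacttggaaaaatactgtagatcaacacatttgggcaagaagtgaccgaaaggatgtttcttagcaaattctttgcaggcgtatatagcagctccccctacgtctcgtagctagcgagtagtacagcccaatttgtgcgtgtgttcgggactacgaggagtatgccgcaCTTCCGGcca
Uqcrc1: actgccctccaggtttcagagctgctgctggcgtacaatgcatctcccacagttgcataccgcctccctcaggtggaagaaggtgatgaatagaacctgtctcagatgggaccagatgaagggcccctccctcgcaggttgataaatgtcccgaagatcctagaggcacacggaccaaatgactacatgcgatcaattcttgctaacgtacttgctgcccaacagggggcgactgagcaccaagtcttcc
Atp5j: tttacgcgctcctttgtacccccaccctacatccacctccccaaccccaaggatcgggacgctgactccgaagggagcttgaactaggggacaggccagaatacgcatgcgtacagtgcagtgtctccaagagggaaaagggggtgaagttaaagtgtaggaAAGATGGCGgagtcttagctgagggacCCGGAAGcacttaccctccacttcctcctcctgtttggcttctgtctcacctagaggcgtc
Cycs: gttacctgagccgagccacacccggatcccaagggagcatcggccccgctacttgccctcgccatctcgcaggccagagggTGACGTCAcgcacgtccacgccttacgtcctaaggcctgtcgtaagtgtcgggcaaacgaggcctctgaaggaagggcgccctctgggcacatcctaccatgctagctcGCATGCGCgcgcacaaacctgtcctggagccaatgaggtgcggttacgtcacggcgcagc
Cox8b: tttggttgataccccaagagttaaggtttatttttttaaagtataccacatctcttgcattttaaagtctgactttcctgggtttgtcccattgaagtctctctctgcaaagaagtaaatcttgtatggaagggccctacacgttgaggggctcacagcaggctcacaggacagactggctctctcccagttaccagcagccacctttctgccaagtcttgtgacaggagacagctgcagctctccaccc

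The Sdhb stretch held an NRF1 core 54 bases before the start and 3 SP sites on the opposite strand, 152, 132 and 104 bases before it. The Cycs stretch held an NRF1 core 60 bases and a CRE 169 bases before the start, and that of Atp5j an ETS core 61 bases and a YY1 site 88 bases before it. Uqcrh had an ETS core on the opposite strand 10 bases before its start. Ndufa4 and Uqcrc1, whose intervals reach into the stretch, and Cox8b, with none, held no exact match there. A match is a description of letters and was not tested as a binding site.

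Promoters (250 bases before to 50 after the start) were listed for 79 of the 98 members, 84 promoters in all. The NRF1 core was in 13 of them (15.5%), compared with 2.71% of all 32851 listed promoters and 5.89% of the 10958 protein-coding promoters with a Bcl11b interval within 1 kb. The ETS core was in 19 member promoters (22.6%, against 8.86% of all and 20.0% of those with an interval), and the YY1 site in 8 (9.52%, against 1.40% and 3.32%). The CRE was in 5 (5.95%, against 1.79% and 3.43%). The SP site was in 37 (44.0%, against 35.7% and 67.8%), and the RUNX site, that of a factor family central to T cells, in 3 (3.57%, against 5.27% and 3.48%). Of the 21263 protein-coding promoters, 3.52% held the NRF1 core, 11.6% the ETS core and 1.83% the YY1 site. The CRE was in 2.23% of them, the SP site in 46.2% and the RUNX site in 4.71%. Relative to other promoters with an interval, the OXPHOS promoters thus held more NRF1 cores and YY1 sites and fewer SP sites, and their median GC content was 58.5% against 62.0%; these shares were not tested. None of the 6 motifs contains another, the CRE is its own reverse complement, and NRF1 matches on both strands can overlap, as they did just after the start of Uqcrc1.

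Nearly every OXPHOS gene carried Bcl11b signal. An interval lay in or within 1 kb of 92 of the 98 genes (93.9%), compared with 13111 of 21887 protein-coding genes (59.9%). OXPHOS genes are shorter, with a median body of 7154 bases against 17169, so their search windows were smaller. One interval was found at 38 genes, 2 at 30 and 3 or more at 24. All members of complexes II, III and V, all assembly factors and Cycs had one, as did 39 of 41 complex I subunits and 14 of 18 complex IV genes. The 6 genes without were Cox6a2, Cox7b2, Cox8b, Cox8c, Ndufb4b and Ndufb4c.

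**Figure D1:**
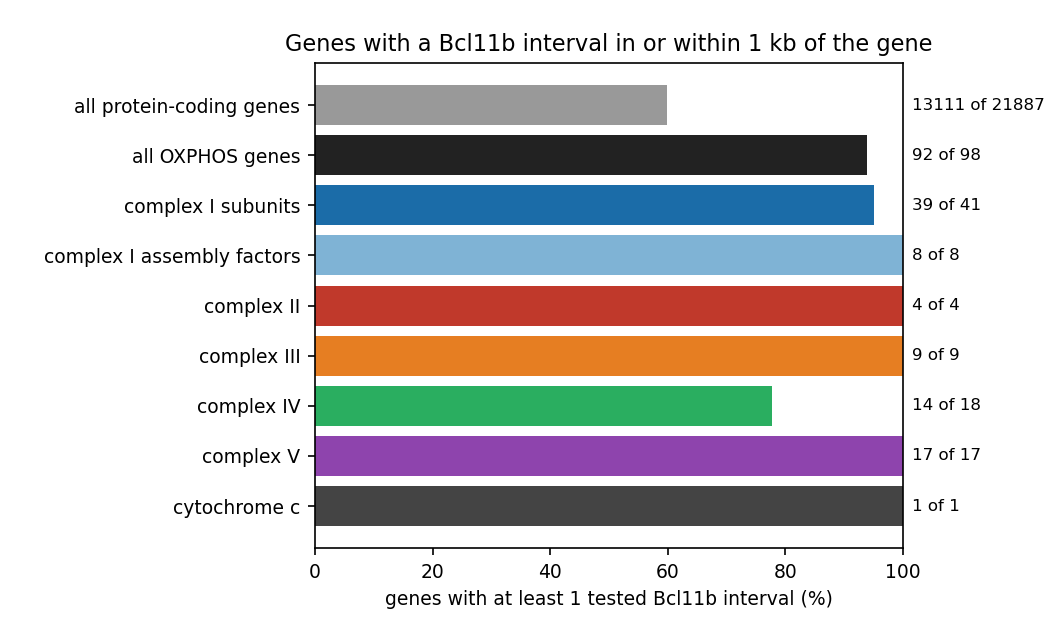
Share of genes, in percent on the horizontal axis, with at least 1 tested Bcl11b interval in or within 1 kb of the gene, for all protein-coding genes, all OXPHOS genes and each complex, with the number of genes at the right. The bar of all OXPHOS genes (92 of 98) lies above that of all protein-coding genes (13111 of 21887), and complex IV (14 of 18) is the lowest of the complexes.

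Genes without an interval, or with a weak one, included the alternative forms of complex IV subunits that are best known from muscle, lung or testis; the following pairs were chosen after their values were seen. Cox8a, the general form of its subunit, had an interval of 50.1 CPM (read counts divided by the scaled total of their library), the mean of 6 libraries, whereas Cox8b and Cox8c had none. Cox7a2 reached 39.1 CPM and the related supercomplex factor Cox7a2l 27.2 CPM, but the heart and muscle form Cox7a1 5.50 CPM, from 4 to 19 reads per library. Cox6b1 had 18.5 CPM and the testis form Cox6b2 at most 6.62 CPM. The 2 intervals of Cox4i1 had 22.5 and 21.0 CPM, and Cox4i2, the lung form, 8.21 CPM. Cox6a1 reached 23.8 CPM, while the muscle form Cox6a2 had no tested interval. The general form was not always strong: Cox7b had 6.34 CPM, beside none at its testis form Cox7b2.

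A similar order was seen among genes named for complex I. Ndufa4, whose product is known as a subunit of complex IV, reached 64.9 CPM. Its paralog Ndufa4l2, known as induced by low oxygen, reached 16.7 CPM. Ndufb4 reached 13.2 CPM, and Ndufb4b and Ndufb4c, annotated copies of it, had no interval. Reads shared by near-identical copies may not be assigned to either, and this was not tested.

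The intervals of OXPHOS genes sat at gene starts. Among the 79 members with a listed start, 76 (96.2%) had an interval midpoint within 1 kb of it, compared with 9199 of 17492 protein-coding genes (52.6%). Within 250 bases the numbers were 75 members (94.9%) and 48.1% of genes. The 3 members without were Ndufb4b, Cox7b2 and Cox8b. Of 150 intervals at members with a listed start, 136 (90.7%) were within 1 kb of it, against 51.2% for all protein-coding genes. In a shorter gene more of the search window lies near the start, and these shares were not adjusted for gene length. The median body was 7154 bases for OXPHOS genes and 17169 for all protein-coding genes. The median position was -21.5 bases for OXPHOS genes and 44 bases for all protein-coding genes, where negative values are upstream. Upstream midpoints made up 75 of 136 (55.1%) at OXPHOS genes and 43.8% at all genes. The 100 bases directly before the start alone held 34 of the 136 (25.0%), against 12.8%.

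**Figure D2:**
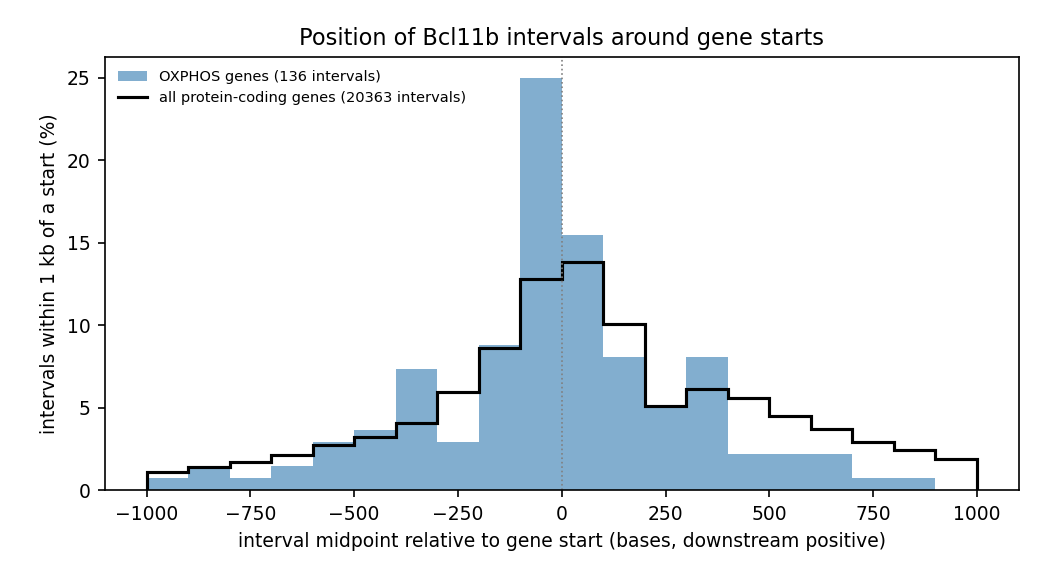
Position of interval midpoints relative to the gene start, in bins of 100 bases on the horizontal axis, as a percentage of intervals within 1 kb of a start. Filled bars are the 136 intervals of OXPHOS genes and the black line the 20363 of all protein-coding genes; the tallest bar, 25.0%, covers the 100 bases before the start.

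Part of the OXPHOS intervals also lay at a neighbouring gene. Of the 181 intervals, 82 also lay in or within 1 kb of another protein-coding gene and 55 within 1 kb of the start of such a gene. For 36 members every interval also lay in or within 1 kb of another gene, so the signal cannot be assigned to either gene alone. The same counts were not made for all protein-coding genes, so they do not set OXPHOS genes apart. The interval of Atp5j also belonged to Gabpa, which encodes the DNA-binding subunit of GABP. Others were shared by Ndufa4 and Phf14, Ndufs1 and Eef1b2, Uqcrh and Lrrc41, Sdhd and Timm8b, and Ndufaf5 and Esf1.

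Signal at OXPHOS genes was above that of the typical interval. The median over the 181 intervals was 17.7 CPM, compared with 11.8 CPM over all tested intervals and 12.6 CPM over the 45121 at protein-coding genes. This was not particular to OXPHOS genes. Of the gene lists described below, other genes of the pathway had a median of 18.2 CPM and thymocyte markers 23.5 CPM. The few intervals at markers of other cells had medians from 4.75 to 11.3 CPM. Members ranged from 5.26 CPM at Ndufb3 to 64.9 CPM at Ndufa4, below the overall maximum of 260.9 CPM. The top quartile of all intervals held 83 of the 181 (45.9%) and the bottom quartile 20. Medians by complex were 18.0 CPM for complex I subunits, 13.1 for assembly factors, 8.96 for complex II, 13.9 for complex III, 18.5 for complex IV, 22.3 for complex V and 18.4 for Cycs. Intervals at gene starts had a median of 20.3 CPM at OXPHOS genes and 16.3 CPM at all protein-coding genes.

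In complex I, the interval of Ndufa4 (chr6:11907534-11907734) was at the 99.2 percentile of all tested intervals. Its signal was 67.5, 60.5 and 60.5 CPM in the wild type libraries and 65.3, 68.9 and 66.6 CPM in the N440K libraries. The values of both genotypes overlapped. Ndufa4 is named as a complex I gene but its product is known as a subunit of complex IV. Ndufs1 (chr1:63176842-63177042), the largest iron-sulfur subunit, had 48.3, 58.0 and 48.5 CPM in Bcl11b+/+ and 54.8, 59.2 and 51.0 CPM in N440K libraries, again overlapping. Over all 6 libraries the mean was 55.3 CPM at Ndufb5, above the 53.3 CPM of Ndufs1, and 48.8 and 44.7 CPM at Ndufs7 and Ndufv2. Among assembly factors, Ndufaf5 (chr2:140170501-140170701), which modifies a subunit during assembly, was the strongest, with 35.3, 48.2 and 30.9 CPM in Bcl11b+/+ and 48.7, 35.4 and 33.8 CPM in N440K libraries. Most intervals at 1 gene, 6 each, were found at Ndufaf2 and Ndufa13.

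The strong intervals of complexes II and III also lay at starts. Sdhb (chr4:140961199-140961399), the iron-sulfur subunit of succinate dehydrogenase, had 39.0, 32.5 and 36.1 CPM in Bcl11b+/+ and 31.0, 31.1 and 32.8 CPM in N440K libraries. The genotypes overlapped, since the lowest wild type library was under the highest N440K library. Sdhd, a membrane anchor, had 29.1, 29.6 and 18.5 CPM in Bcl11b+/+ and 28.2, 24.4 and 32.3 CPM in N440K libraries. Uqcrh (chr4:116074952-116075152), the hinge protein of complex III, had 47.7, 47.3 and 50.6 CPM in Bcl11b+/+ and 60.4, 45.8 and 57.3 CPM in N440K libraries. One N440K library of Uqcrh thus lay below all wild type libraries and the others above them. Uqcrfs1, the Rieske protein, had 27.0 ± 6.81 CPM in Bcl11b+/+ and 28.4 ± 5.03 CPM in N440K libraries (SD, n = 3).

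In complex IV, the interval of Cox5a (chr9:57521059-57521259), a nuclear subunit around the catalytic core, had 53.0 ± 8.09 CPM in Bcl11b+/+ and 55.0 ± 9.98 CPM in N440K libraries (SD, n = 3). Cox8a, a small subunit, had 46.8 ± 6.92 CPM in Bcl11b+/+ and 53.4 ± 5.29 CPM in N440K libraries (SD, n = 3). Both overlapped between genotypes. In complex V, the interval of Atp5a1, the alpha subunit of the catalytic head, varied most between libraries of 1 genotype among these, with 65.7, 56.4 and 36.1 CPM in Bcl11b+/+ and 63.1, 73.8 and 44.2 CPM in N440K libraries. Atp5j (chr16:84834851-84835051), a stalk subunit, had 48.9, 56.0 and 59.7 CPM in Bcl11b+/+ and 72.5, 59.2 and 68.7 CPM in N440K libraries. Cycs (chr6:50566520-50566720) had 27.9, 28.8 and 24.5 CPM in Bcl11b+/+ and 26.6, 23.2 and 17.7 CPM in N440K libraries.

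**Figure D3:**
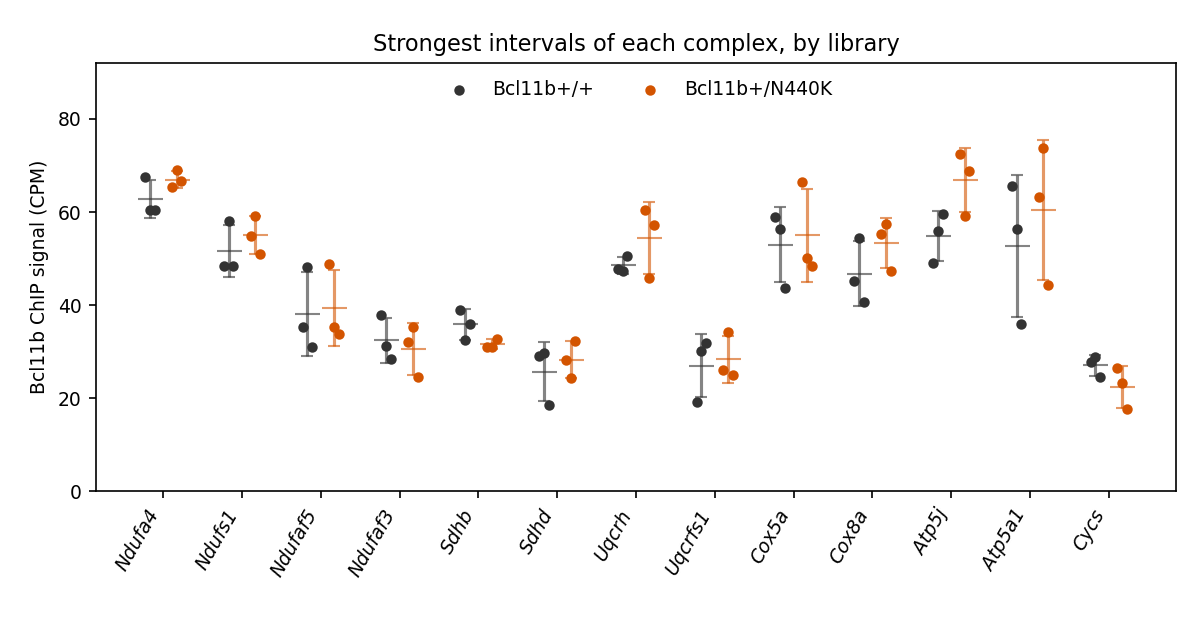
Bcl11b ChIP signal in CPM (vertical axis, linear from 0) in each of 3 wild type and 3 N440K libraries at the strongest intervals of each complex, 1 per gene; points are libraries, and bars give the mean and SD. The points of both genotypes overlap at all 13 genes, and Ndufa4 and Atp5j are highest.

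The comparison of genotypes asked where binding differed between Bcl11b+/+ and Bcl11b+/N440K thymocytes. No OXPHOS interval passed the test: 0 of 181 had an adjusted p under 0.05 by edgeR's quasi-likelihood test with Benjamini-Hochberg adjustment over all tested intervals. The smallest adjusted p of that test was 0.109, at Uqcrc1. Over all intervals the same test called 720 (1.14%), 290 higher and 430 lower in N440K. At that share few calls would fall among 181 intervals, so 0 calls do not set the OXPHOS intervals apart. DESeq2 called 0 OXPHOS intervals and 0.0951% of all, and limma voom 0 and 0.504%. At an unadjusted p under 0.05, edgeR gave 13 OXPHOS intervals (7.18%), 10 higher and 3 lower in N440K, where 12.7% of all intervals did, while DESeq2 gave 2, where 5.06% of all intervals did, and limma voom 14, where 12.6% did. The libraries of both genotypes did not overlap at 21 OXPHOS intervals (11.6%), against 17.3% of all intervals. In the edgeR count at unadjusted p and in the count without overlap, the members' share was below that of all intervals.

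The fitted differences at OXPHOS genes were small. The median log2 fold change (N440K over wild type) was 0.05 over the 181 intervals and 0.00 over all tested intervals, and members ranged from -0.64 to 0.70, with 103 above and 78 below 0. The 95% confidence interval of the fold lay within 2-fold either way for 165 of 181 (91.2%), compared with 71.2% of all tested intervals. The width of a confidence interval depends on the number of reads, and members had more signal (median 17.7 against 11.8 CPM). These shares were not compared at equal signal. The medians were 0.04 for complex I subunits, 0.06 for assembly factors, -0.02 for complex II, 0.02 for complex III, 0.05 for complex IV, 0.19 for complex V and -0.11 for Cycs. Complex V thus had the highest median, with 20 of 32 intervals above 0, and its median lay between 0.09 (without wild type replicate 3) and 0.23 over the alternative fits. The medians of complex I subunits, assembly factors and complexes II, III and IV each changed sign in at least 1 of those fits. Each library was also set against the mean of the wild type libraries other than itself. The median log2 ratio of complex V was then -0.04, 0.12 and -0.11 in wild type and 0.05, 0.12 and 0.14 in N440K libraries. Over all members it was -0.02, 0.10 and -0.11 in wild type and 0.06, 0.07 and 0.04 in N440K libraries. In both cases the genotypes overlapped. In the top quartile of signal the median log2 fold change was 0.11 for members and 0.06 for all intervals. In the bottom quartile it was -0.15 and -0.08. Whether signal strength bears on the medians of the members was not tested.

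**Figure D4:**
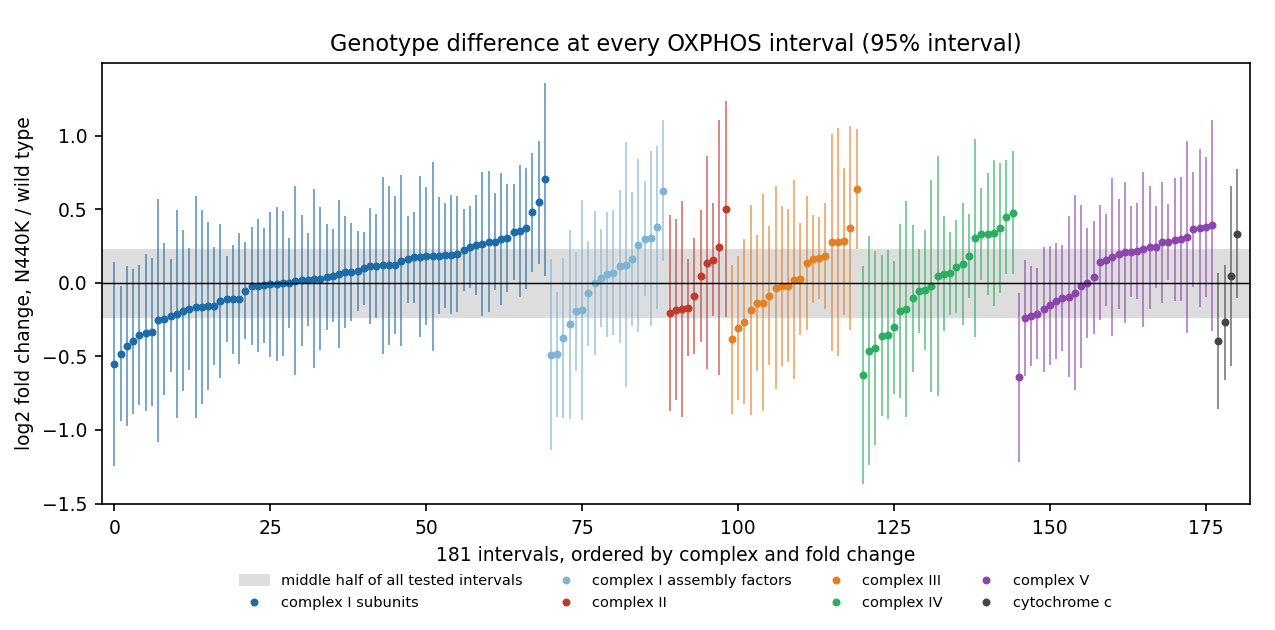
Log2 fold change (N440K over wild type, vertical axis) of each of the 181 OXPHOS intervals, ordered along the horizontal axis by complex and value; points are edgeR estimates and lines their 95% confidence intervals. The grey band is the interquartile range of all tested intervals, and the points run from -0.64 to 0.70.

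Over all tested intervals, a smaller share was called at gene starts than elsewhere. Whether this bears on the OXPHOS intervals was not tested. Of 18588 tested intervals within 1 kb of a protein-coding start, edgeR's quasi-likelihood test with Benjamini-Hochberg adjustment called 81 (0.436%), and 639 of the 44510 elsewhere (1.44%). At an unadjusted p under 0.05 the OXPHOS start intervals numbered 8 of 136 (5.88%), against 9.13% of all start intervals.

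The interval with the smallest p was at Uqcrc1 (chr9:108936633-108936833), which encodes a core protein of complex III. Its signal was 18.0, 17.7 and 15.9 CPM in Bcl11b+/+ and 24.4, 28.1 and 27.6 CPM in N440K libraries. All N440K libraries lay above all wild type libraries, by 1.55-fold in the fit (log2 0.64, 95% confidence interval 0.23 to 1.04), with an adjusted p of 0.109 by edgeR's quasi-likelihood test with Benjamini-Hochberg adjustment. Over the alternatives run, its adjusted p lay between 0.0894 and 0.809.

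Ndufa13, a membrane-arm subunit of complex I, had 19.2, 16.5 and 15.5 CPM in Bcl11b+/+ and 27.7, 24.4 and 21.9 CPM in N440K libraries at chr8:69902572-69902772, an interval shared with Tssk6. Here too the genotypes did not overlap (log2 0.55, 95% confidence interval 0.13 to 0.96). Ndufaf8 (chr11:120098746-120098946), a partner of Ndufaf5, had 11.2, 11.9 and 13.3 CPM in Bcl11b+/+ and 17.7, 23.2 and 16.1 CPM in N440K libraries, shared with Tepsin. Its log2 fold change was 0.62 (0.15 to 1.10), without overlap. Adjusted p-values of edgeR's quasi-likelihood test with Benjamini-Hochberg adjustment were 0.216 for Ndufa13 and 0.217 for Ndufaf8.

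Values in the other direction were found at another assembly factor. Ndufaf3 (chr9:108567258-108567458), which acts early in complex I assembly, had 27.3, 22.6 and 22.3 CPM in Bcl11b+/+ and 13.3, 18.9 and 18.7 CPM in N440K libraries (log2 -0.49, 95% confidence interval -0.91 to -0.06). Its stronger interval under 1 kb away had 32.5 ± 4.84 CPM and 30.7 ± 5.61 CPM (SD, n = 3), which overlapped. Both intervals were shared with Dalrd3. Ndufa4l2 (chr10:127512929-127513129) had 18.0, 18.5 and 21.9 CPM in Bcl11b+/+ and 15.0, 14.6 and 12.5 CPM in N440K libraries, without overlap. The second interval of Cycs (chr6:50566143-50566343), again without overlap, had 18.6, 20.2 and 17.2 CPM in Bcl11b+/+ and 14.4, 14.6 and 13.5 CPM in N440K libraries. Their adjusted p-values by edgeR's quasi-likelihood test with Benjamini-Hochberg adjustment were 0.304, 0.356 and 0.489.

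Of the remaining intervals with the smallest p in their complex, Cox4i1 (chr8:120667820-120668020), the general form of a complex IV subunit, had 17.5 ± 1.57 CPM in Bcl11b+/+ and 24.6 ± 4.24 CPM in N440K libraries. Cox7a2l had 22.9 ± 3.23 and 31.4 ± 8.74 CPM. The Atp5j interval shared with Gabpa had 54.9 ± 5.45 and 66.8 ± 6.88 CPM. Atp5d (chr10:80139199-80139399), the delta subunit, had 13.3 ± 1.52 and 8.71 ± 3.04 CPM, and Uqcrq, a small subunit of complex III, 15.7 ± 3.42 and 12.2 ± 2.52 CPM (SD, n = 3 throughout). Cox4i1 did not overlap between genotypes and the others did. Ndufs3, a core subunit of complex I, had 14.2 ± 2.37 CPM in Bcl11b+/+ and 10.8 ± 3.95 CPM in N440K libraries, and Ndufa11, an accessory subunit, 17.0 ± 3.14 and 13.0 ± 3.24 CPM (SD, n = 3), both overlapping. Neighbours shared the intervals of Cox4i1 (Gm27021 and Emc8), Atp5d (Cbarp), Uqcrq (Gdf9), Ndufs3 (Kbtbd4) and Ndufa11 (Vmac). Complex II gave no interval with an unadjusted p under 0.05, the smallest being at Sdhc.

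**Figure D5:**
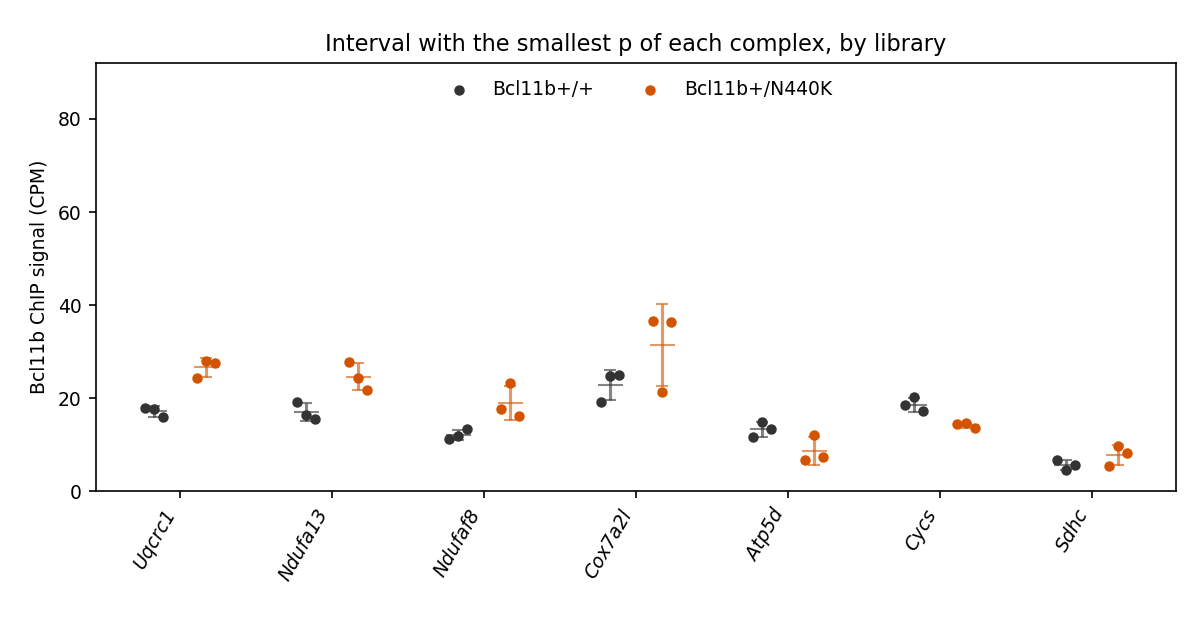
Bcl11b ChIP signal in CPM (vertical axis, linear from 0) in each of 3 wild type and 3 N440K libraries at the interval with the smallest p of each complex, ordered by p; points are libraries, and bars give the mean and SD. At Uqcrc1, at the left, wild type libraries lie between 15.9 and 18.0 CPM and N440K libraries between 24.4 and 28.1 CPM; no interval shown passed the adjusted test.

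Counts were also summed over all intervals of a gene, which adds reads only for the genes with more than 1 interval (38 of the 92 had 1), and again no OXPHOS gene passed. By edgeR's quasi-likelihood test with Benjamini-Hochberg adjustment, 0 of 92 were called, against 385 of 13038 genes (2.95%). At an unadjusted p under 0.05 there were 6, 4 higher and 2 lower in N440K, where 14.6% of all genes were, and DESeq2 called 0. The 4 were Uqcrc1, Ndufa13, Ndufaf8 and Ndufa12, and the 2 were Ndufaf3 and Ndufa4l2. Uqcrc1 has 1 interval, so its sum holds the same reads as above, scaled to the total over genes. It was 21.0 ± 0.966 CPM in Bcl11b+/+ and 32.0 ± 2.40 CPM in N440K libraries (SD, n = 3), with the smallest adjusted p of that test among members, 0.0880. At Ndufaf3 it was 86.2 ± 6.11 and 70.3 ± 8.24 CPM. The median over the 92 genes was 0.03 on the log2 scale, and for 76 (82.6%) the 95% confidence interval lay within 1.5-fold either way, against 71.3% of all genes. These shares, too, were not compared at equal signal.

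As a share of each library's reads in tested intervals, the OXPHOS intervals made up 0.376, 0.391 and 0.351% in wild type and 0.396, 0.392 and 0.372% in N440K libraries. The means were 0.373 ± 0.0201% and 0.387 ± 0.0127% (SD, n = 3), and the genotypes overlapped. The intervals themselves were 0.287% of those tested.

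One called interval lay outside the 1 kb margin but within 5 kb of a member. It was the only 1 called among the 253 intervals at the 5 kb margin, where 1.14% of all tested intervals were called. At chr10:80148988-80149188, 3.3 kb from the Atp5d body and also near Midn, signal was 53.3, 52.7 and 49.4 CPM in Bcl11b+/+ and 67.6, 80.5 and 75.0 CPM in N440K libraries. It rose 1.44-fold in N440K (log2 0.52), with an adjusted p of 0.0203 by edgeR's quasi-likelihood test with Benjamini-Hochberg adjustment. It is no member by the rule. None of the 3 intervals inside Atp5d passed the test, and their values went both ways. The one at the start had 17.9 ± 1.76 CPM in Bcl11b+/+ and 21.9 ± 1.35 CPM in N440K libraries (SD, n = 3), without overlap. The other two had 37.5 ± 3.55 and 13.3 ± 1.52 CPM in Bcl11b+/+ and 32.6 ± 7.30 and 8.71 ± 3.04 CPM in N440K libraries.

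Other genes of the pathway were taken from a list of 65, which held regulators of mitochondrial biogenesis, assembly factors, carriers and the citric acid cycle. All 65 had an interval, 170 in total, of which 3 were also OXPHOS intervals, and 56 of the 57 with a listed start had one within 1 kb of it. edgeR's quasi-likelihood test with Benjamini-Hochberg adjustment called 0 of 170, with 13 at an unadjusted p under 0.05 (7.65%, against 12.7% of all tested intervals; 10 higher, 3 lower in N440K), and the median log2 fold change was 0.05. The smallest p was at Slc25a5 (chrX:36796193-36796393), a carrier that exchanges ADP and ATP across the inner membrane. Its signal was 16.7, 24.3 and 18.0 CPM in Bcl11b+/+ and 35.4, 32.3 and 28.1 CPM in N440K libraries, without overlap. The adjusted p of that test was 0.0654. It passed the threshold in 3 alternatives: 0.0499 with no filter, 0.0490 with a replicate block and 0.0410 without wild type replicate 2. Cox10, needed to make the haem of complex IV, had 3.88 ± 1.21 and 8.92 ± 3.05 CPM inside its body, 104030 bases from the start. Ppargc1a, a coactivator of mitochondrial genes, had 13.0 ± 2.66 and 7.21 ± 1.69 CPM (SD, n = 3 for both genes). Its interval lay outside the gene body, at position -548422 from the listed start. Adjusted p-values of edgeR's quasi-likelihood test with Benjamini-Hochberg adjustment were 0.111 for Cox10 and 0.155 for Ppargc1a.

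Reads in all intervals numbered 1787899 to 2661343 per library, and 1609762 to 2400250 in the tested ones. Signal was found at all 11 marker genes of thymocytes, with an interval within 1 kb of the start at 8 of the 8 with a listed start. Of markers of other cells, 2 of 4 for B cells, 2 of 3 for erythroid cells, 1 of 4 for myeloid cells and 1 of 4 for thymic epithelium had any tested interval. None of those with a listed start had an interval within 1 kb of it. Starts were listed for 2 B cell, 2 erythroid, 2 myeloid and 4 thymic epithelium markers. These values are binding data and do not measure expression. Among the 71 intervals of the thymocyte markers, 7 were called by edgeR's quasi-likelihood test with Benjamini-Hochberg adjustment, and all 7 were lower in N440K. Over all tested intervals the same test called 720 of 63098 (1.14%), of which 430 were lower. The part of the difference at the thymocyte markers in the OXPHOS values was not tested.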

How the data were processed

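Bcl11b ChIP-seq counts of 3 Bcl11b+/+ and 3 Bcl11b+/N440K thymocyte libraries were used. Read counts in 93708 intervals of 201 bases were deposited by the authors, with no normalization. The authors also deposited CPM values (read counts divided by the scaled total of their library) for 63098 of these intervals. Dividing out 1 library-wide constant turned CPM back into counts, and whole reads came back for 100% of values (tolerance 0.01). Per the submitters' processing notes, the build was mm10 and the tools included MACS2, edgeR 3.38.2, bedtools, Bowtie2 2.3.5, fastp 0.20.0 and SAMtools 1.9, with no role given. No source used here states whether libraries were pooled for peak calling, and any removal of duplicates would lower high counts. Input libraries were left out, and signal was not set against input.

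Counts were filtered with filterByExpr by genotype, which kept the same 63098 intervals, and scaled by TMM. They were tested two-sided with edgeR 4.0.16 in R 4.3.3 (glmQLFit, glmQLFTest), genotype only, with Benjamini-Hochberg adjustment over all intervals and a threshold of 0.05. Scripts were tested on simulated data. Summed counts per gene were tested likewise, with shared intervals entering both genes. DESeq2 1.42.0, limma 3.58.1 (voom), other scalings and filters, other windows and leaving out each library were alternatives. No library was a copy of another: chi-square per degree of freedom was 1.24 to 1.42 within and 1.55 to 1.77 between genotypes. Gene bodies, starts and promoters came from RefSeq tables of GRCm38.p6. No genome was used, so exons and introns were not told apart.

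Named intervals were, per complex, the 2 with the highest wild type CPM and the 2 with the smallest p, 1 per gene. To these were added the 5 largest folds higher and the 5 lower among intervals with at least the median CPM, the gene with most intervals, and 3 related genes by p. One interval that this rule takes is not reported here. Members, lists and rules were chosen with earlier results of these data known, and the paralog pairs and the Atp5d interval outside the margin after their values were seen.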

Additional observations from a re-analysis of the deposited data

How the results depend on the processing

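No OXPHOS interval was called under any refit or by gene body only; widening the margin to 5 kb gave 1, the interval 3.3 kb from Atp5d. No OXPHOS gene was called on summed counts in any alternative, and the median log2 fold change of OXPHOS intervals lay between 0.02 and 0.09. Calls over all intervals moved from 720 to 60 with DESeq2 (21 higher, 39 lower), 318 with limma voom (172 higher, 146 lower), 327 when weaker intervals (below the median CPM) were dropped and 207 with the threshold at 0.01. Leaving out 1 library gave 301 (without N440K replicate 1) to 588 calls, with 397 without N440K replicate 3, 459 without wild type replicate 1 and 435 without wild type replicate 3. Same-numbered libraries of the 2 genotypes correlated at -0.004, 0.028 and 0.058, and differently numbered ones between -0.047 and 0.017. Values this small cannot decide whether replicate numbers pair the libraries. With the replicate block, 753 intervals and 0 OXPHOS intervals were called and the OXPHOS median was 0.05 (676 calls, 0 and 0.02 with loess offsets added to the block), and 0 OXPHOS genes on summed counts. Start intervals numbered 82 within 250 bases instead of 136 within 1 kb. Over all deposited counts, the OXPHOS share of reads was 0.336% in wild type and 0.352% in N440K libraries. Genes with an interval were 66 by body only, 94 at 5 kb and 93 in all deposited intervals. Among named intervals, 292 alternative fold changes stayed on their side of the threshold and 3 crossed it, all at Slc25a5. Depth limits the weak intervals: with 4 to 19 reads per library, as at Cox7a1, small differences were not detectable.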
